A study of Mus musculus with 6 samples.

Results

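The genes described here are those of cholesterol synthesis and of its control by the transcription factor SREBP2, measured by RNA sequencing of whole mouse liver with and without Pak4 in hepatocytes. They are 27 genes, taken by symbol from the 45777 genes of the deposited count table: 9 genes of the mevalonate and isoprenoid steps, 3 of the squalene and lanosterol steps, 9 of the sterol steps after lanosterol, 4 that control SREBP2 and 2 further genes that respond to sterols. The genes were taken by symbol and not by a cutoff on their values, but the list was chosen with earlier results of these data known. The WT group held 3 liver libraries from C57BL/6 mice with floxed Pak4 alleles (flox/flox) and no Cre. The Pak4_KO group held 3 libraries from mice with the same floxed alleles and Alb-Cre, in which the albumin promoter drives the recombinase in hepatocytes, while other liver cells keep Pak4. All mice were 10 weeks old, so both groups share the strain, the age and the floxed alleles. The labels do not say which animal each library came from, and p-values therefore measure the spread between these libraries. The labels name no treatment or diet.

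Cholesterol is built from acetyl-CoA. Thiolase and HMG-CoA synthase lead to mevalonate, which is phosphorylated and decarboxylated to isoprene units, and these are joined to farnesyl diphosphate, squalene and lanosterol before a series of sterol reactions ends in cholesterol. The hepatocyte is a main site of this synthesis in the body. SREBP2 is made as a membrane protein that SCAP carries from the endoplasmic reticulum to the Golgi when sterols are scarce; there it is cleaved, and the released part enters the nucleus and turns on most genes of the pathway. INSIG proteins hold SCAP in the endoplasmic reticulum when sterols are plentiful, and Insig1 is itself a target of SREBP2.

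The promoters of the genes were searched for motifs. Promoter sequence was not used to choose the genes, but they were chosen partly as targets of SREBP2. Shared motifs are therefore not independent of the choice. RefSeq start sites on GRCm38.p6 were matched for 22 of the 27 genes, with 28 windows from 250 bases before to 50 bases after the start. Sqle, Fdps, Fdft1, Acat3 and Stard4 had no entry. The sequences shown next were chosen after the values were seen. Hmgcs1, Mvd, Msmo1 and Insig1 were among the genes that differed strongly among the Pak4_KO libraries, and Insig2 did not follow them. Mvk and Cyp51 also differed strongly and have windows, but their sequences are not shown. Each covers the bases just before the start, written 5′ to 3′ on the strand of the gene. Capitals mark motifs on either strand. In all 5 sequences they mark CCAAT, the box bound by the factor NF-Y. In Hmgcs1 they also mark the sterol regulatory element, searched as TCACNCCAC. In Insig1 they also mark an E-box, searched as CACGTG, and a shorter spelling of the sterol element, searched as CACNCCAC.
Hmgcs1 (chr13:119690151-119690350, plus strand): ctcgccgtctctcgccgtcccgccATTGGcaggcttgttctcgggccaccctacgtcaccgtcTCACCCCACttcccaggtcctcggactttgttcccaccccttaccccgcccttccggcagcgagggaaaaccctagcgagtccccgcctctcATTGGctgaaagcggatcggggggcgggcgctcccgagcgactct
Mvd (chr8:122443423-122443622, minus strand): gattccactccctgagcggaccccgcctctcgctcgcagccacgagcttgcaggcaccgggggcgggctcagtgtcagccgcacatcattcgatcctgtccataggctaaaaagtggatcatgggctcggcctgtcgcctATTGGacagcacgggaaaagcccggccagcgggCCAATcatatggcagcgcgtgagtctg
Msmo1 (chr8:64733579-64733778, minus strand): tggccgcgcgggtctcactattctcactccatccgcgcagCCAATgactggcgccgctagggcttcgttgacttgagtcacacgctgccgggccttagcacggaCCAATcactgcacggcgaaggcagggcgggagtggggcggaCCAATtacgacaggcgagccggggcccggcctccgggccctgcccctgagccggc
Insig1 (chr5:28071172-28071411, plus strand): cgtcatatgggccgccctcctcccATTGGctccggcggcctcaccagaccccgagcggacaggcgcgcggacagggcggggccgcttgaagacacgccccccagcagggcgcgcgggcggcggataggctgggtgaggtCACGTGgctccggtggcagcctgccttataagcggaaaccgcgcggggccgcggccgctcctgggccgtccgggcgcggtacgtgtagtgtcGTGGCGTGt
Insig2 (chr1:121332590-121332789, minus strand): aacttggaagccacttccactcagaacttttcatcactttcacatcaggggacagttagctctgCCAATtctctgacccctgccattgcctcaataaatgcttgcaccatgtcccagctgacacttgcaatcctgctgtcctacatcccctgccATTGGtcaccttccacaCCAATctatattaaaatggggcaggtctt
Hmgcs1 was the only gene of the 22 with TCACNCCAC in its window (4.55%), where 1.44% of all 27025 genes in the promoter table held it. The shorter CACNCCAC, which overlaps it, was in 3 of 22 (13.6%) and in 7.12% of all genes. CCAAT was in the windows of 20 of the 22 genes (90.9%), against 41.1% of all genes and 42.3% of the 17492 coding genes. GGGCGG, the Sp1 box, was also in 20 of 22, against 38.2% of all genes and 49.2% of coding genes. CACGTG was in 5 of 22 (22.7%) and in 8.09% of all genes. Acat2 and Scap were the genes without CCAAT. Insig2 has 3 annotated start windows, of which the printed one is the farthest upstream, and gene counts do not tell which start was used. A match describes these letters in these windows and is not a measured binding site.

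Pak4, which encodes a serine/threonine kinase and lies on chromosome 7 (28558819 to 28598184, GRCm38.p6), was measured first as a check of the labels. It was at 5.93, 7.15 and 6.44 CPM in WT replicates 1 to 3 and at 1.37, 2.24 and 1.90 CPM in Pak4_KO replicates 1 to 3. CPM are a gene's reads as a share of the library total, scaled to a fixed depth and here corrected by TMM factors. The groups did not overlap, and Pak4 was lower in Pak4_KO by a log2 fold change of -1.82 with an SE of 0.24 (edgeR adjusted p = 0.0169). The call was lost without WT replicate 1 (adjusted p = 0.0562), WT replicate 2 (0.0608) or Pak4_KO replicate 3 (0.0936). Library totals ran from 39603272 to 52521400 reads, and every one of the 27 genes had at least 59 reads in each library. The hepatocyte markers Alb, Apoa2, Serpina1a, Cps1, Hnf4a, Ahsg, Tat and Ass1 were all detected, with summed levels of 45149.7 to 59353 CPM in WT and 54867 to 62478 CPM in Pak4_KO. In bulk tissue, fewer cells of a type and less RNA per cell cannot be told apart.

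No gene of cholesterol synthesis or SREBP2 control was called between the genotypes. All 27 were tested, and 0 had an edgeR adjusted p under 0.05, where 76 of 16197 tested genes did (0.469%; 0.265% called higher and 0.204% called lower). Insig2 was the 1 gene with an unadjusted p under 0.05, as 8.21% of all tested genes had. DESeq2, limma-voom and limma-trend on TPM also called 0 of the 27. The log2 fold change was negative for 21 genes and positive for 6, with a median of -0.15 against 0.004 over all tested genes. In CPM the groups did not overlap for 3 genes, Acat2 and Acat3 lower and Hsd17b7 higher in Pak4_KO. This is 11.1% of the genes, against 13.4% of all tested genes (7.35% higher, 6.06% lower). In the deposited TPM, which are scaled by transcript length, the groups did not overlap for 5 genes, with Pmvk, Hsd17b7 and Insig2 higher and Ggps1 and Ebp lower. This is 18.5% of the genes, against 14.7% of all tested genes (11% higher, 3.72% lower), and Hsd17b7 was the gene with no overlap on both scales. The median depended on single libraries: it was -0.04 without Pak4_KO replicate 3, -0.31 without Pak4_KO replicate 1 and -0.09 without WT replicate 2. On simulated data of the same size the test called 2.99% of genes changed 1.5-fold and 34.8% of genes changed 2-fold, so most changes below 2-fold were not detectable with these libraries.

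**Figure D1:**
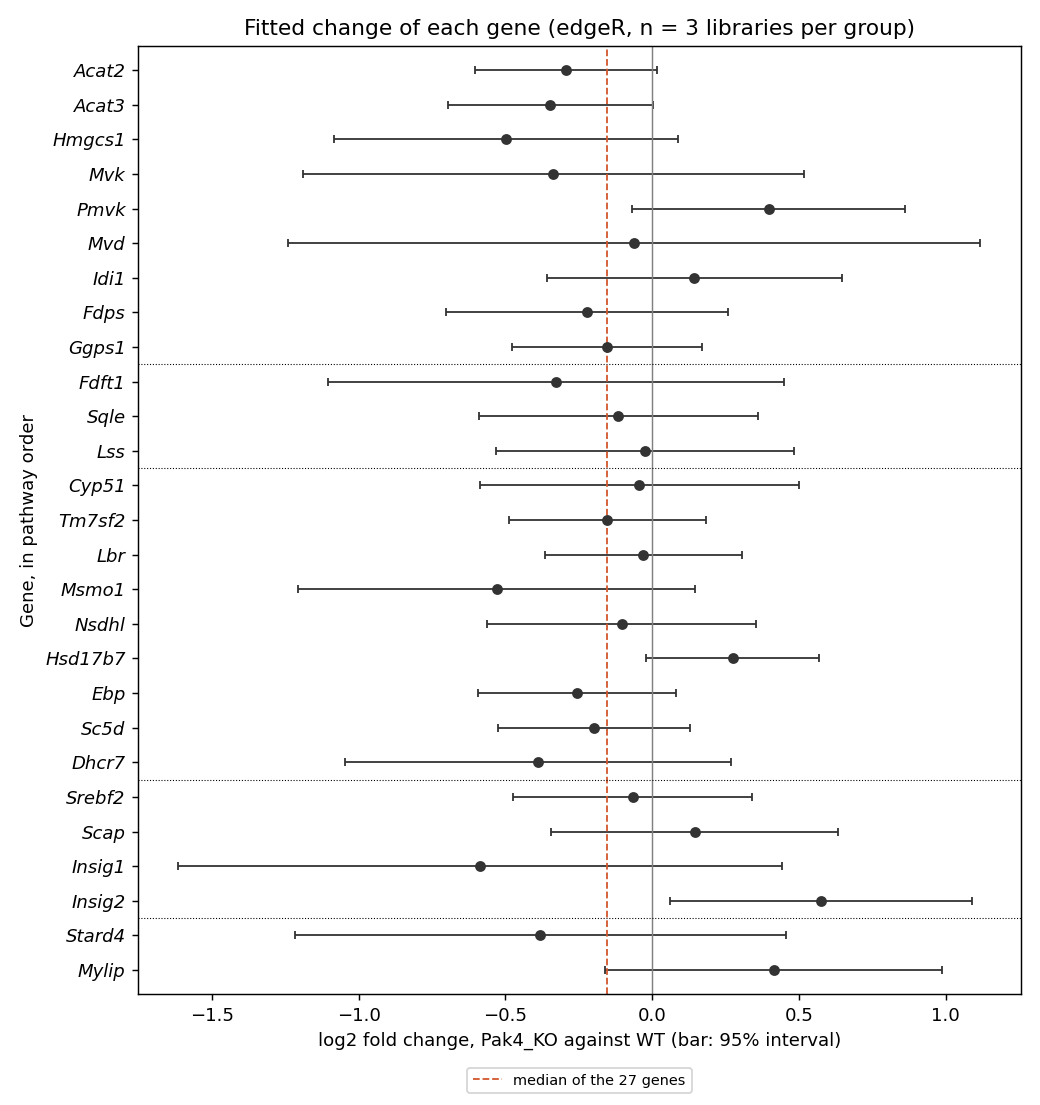
Fitted log2 fold change of each of the 27 genes, Pak4_KO against WT (edgeR, 3 libraries per group), in pathway order from top to bottom. Points are estimates, bars are 95% intervals, dotted lines separate the stages, and the dashed line is the median of -0.15. Most points lie left of 0, and the interval of Insig2 is the only interval that leaves out 0 (0.06 to 1.09).

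The thiolase genes that open the pathway had negative fitted values and did not pass the test, and whether their groups overlapped depended on the scale. Acat2 encodes the cytosolic thiolase that joins acetyl-CoA units, and lies on chromosome 17 (12943042 to 12960725) next to its near-copy Acat3 (12923830 to 12940595). Acat2 was at 80.7, 76.4 and 75.6 CPM in WT and at 72.4, 63.0 and 54.4 CPM in Pak4_KO, with no overlap on this scale. In TPM the groups overlapped, with Pak4_KO replicate 1 at 60.2 and WT replicates 2 and 3 at 59.2 and 58.9. Its log2 fold change was -0.29 (95% interval -0.60 to 0.02, edgeR adjusted p = 0.641). Acat3 was at 252, 202 and 236 CPM in WT and at 199, 191 and 152 CPM in Pak4_KO, and its log2 fold change was -0.35 (-0.69 to 0.00, adjusted p = 0.610). Its groups did not overlap in CPM but did in TPM, where Pak4_KO replicate 1 was at 163 and WT replicate 2 at 154. The transcripts of this pair are 97.7% identical over 1477 bases, and how reads that match both were counted is not given in the sources used here. If each such read was counted once, for either gene, the sum of Acat2 and Acat3 does not depend on how they were shared. The sum was 307 ± 27.2 CPM in WT and 244 ± 33.4 CPM in Pak4_KO (SD, n = 3 each), a log2 ratio of -0.33. Of the Acat3 exon bases, 23.5% overlap Tcp1 on the opposite strand, and whether counting used the strand is not given either.

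Hmgcs1 encodes the cytosolic HMG-CoA synthase, the step before mevalonate is formed, on chromosome 13 (119690351 to 119708260). It was at 321, 225 and 285 CPM in WT and at 272, 183 and 133 CPM in Pak4_KO. Pak4_KO replicate 1 lay within the WT range and the other Pak4_KO libraries lay below it. The log2 fold change was -0.50 (-1.08 to 0.09, edgeR adjusted p = 0.683), and -0.29 without Pak4_KO replicate 3. Gm48342 on the opposite strand overlaps 12.1% of the Hmgcs1 exon bases. Pmvk, the phosphomevalonate kinase, went the other way at 26.7, 32.1 and 28.8 CPM in WT and 49.4, 37.9 and 28.0 CPM in Pak4_KO. Pak4_KO replicates 1 and 2 were above all WT libraries and replicate 3 was inside their range, with a log2 fold change of 0.40 (-0.07 to 0.86, adjusted p = 0.683).

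The other enzymes up to geranylgeranyl diphosphate had smaller fitted differences or wider intervals. Mvk (mevalonate kinase), Mvd (mevalonate diphosphate decarboxylase), Idi1 (isopentenyl diphosphate isomerase) and Fdps (farnesyl diphosphate synthase) had log2 fold changes of -0.34, -0.06, 0.14 and -0.22, with edgeR adjusted p from 0.875 to 0.996 and overlapping groups. The interval of Mvd, from -1.24 to 1.12, leaves changes of over 2-fold in either direction possible. Ggps1, which makes geranylgeranyl diphosphate for protein prenylation, was at 21.7, 18.4 and 21.9 CPM in WT and at 17.5, 20.6 and 17.7 CPM in Pak4_KO. Its groups overlapped through WT replicate 2 and Pak4_KO replicate 2, and its log2 fold change was -0.15 (-0.48 to 0.17, adjusted p = 0.870). Reads of Idi1 can be shared with the pseudogene Gm35570, which is 97.7% identical over 681 bases and had 5237 reads in Pak4_KO beside the 9139 of Idi1. The sum of Idi1 and Gm35570 was 101 ± 12.4 CPM in WT and 104 ± 20.0 CPM in Pak4_KO (SD, n = 3 each). Of the Fdps exon bases, 26.7% belong also to Gm43738 on the same strand. Over the 9 genes of this stage the median log2 fold change was -0.22, with 2 positive and 7 negative.

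The 3 genes that turn farnesyl diphosphate into lanosterol all had negative fitted values and overlapping groups. Fdft1, the squalene synthase, was at 55.2, 74.0 and 46.5 CPM in WT and at 72.7, 40.9 and 26.4 CPM in Pak4_KO. In CPM, Pak4_KO replicate 1 was near the highest WT library and the others were below all 3. The log2 fold change of Fdft1 was -0.33 (-1.10 to 0.45, edgeR adjusted p = 0.890). In TPM, Pak4_KO replicate 1 was at 26.0, near the lowest of the WT libraries at 31.1, 36.3 and 25.1. The log2 fold change of Fdft1 rests on the counts. Of the Fdft1 exon bases, 18.3% overlap Ctsb on the opposite strand. Lss, the lanosterol synthase, was at 35.7, 54.6 and 39.5 CPM in WT and at 52.8, 42.8 and 32.0 CPM in Pak4_KO. The groups covered nearly the same range (log2 fold change -0.02, -0.53 to 0.48, adjusted p = 0.997), and the sign turned with library size scaling or TPM. Sqle, the squalene epoxidase, was fitted at -0.11 (adjusted p = 0.952), and at 0.079 without Pak4_KO replicate 3.

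Among the 9 sterol steps after lanosterol, 8 had negative values and Hsd17b7 a positive value, with a median of -0.15. Cyp51, the lanosterol demethylase that opens this stage, was at 158, 152 and 148 CPM in WT and at 192, 159 and 92.9 CPM in Pak4_KO. The WT libraries were close together, while the Pak4_KO libraries lay on both sides of them, and the means were nearly equal (log2 fold change -0.04, -0.59 to 0.50, edgeR adjusted p = 0.993). Msmo1, the sterol C4 methyl oxidase on chromosome 8 (64718123 to 64733578), was at 163, 165 and 139 CPM in WT and at 151, 114 and 58.5 CPM in Pak4_KO. Replicate 1 of Pak4_KO was within the WT range and the others were below it. The log2 fold change of Msmo1 was -0.53 (-1.21 to 0.15, adjusted p = 0.717), and -0.23 without Pak4_KO replicate 3.

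Hsd17b7, the 3-keto sterol reductase of the same demethylation complex, lies on chromosome 1 (169949535 to 169969242). It was at 98.6, 78.7 and 96.6 CPM in WT and at 109, 114 and 108 CPM in Pak4_KO. All Pak4_KO libraries were above all WT libraries and close to each other, with a log2 fold change of 0.27 (-0.02 to 0.57, edgeR adjusted p = 0.648). Nsdhl, the dehydrogenase that acts between Msmo1 and Hsd17b7, had a value of -0.10 with overlapping groups (adjusted p = 0.953), so the 3 genes of 1 reaction series had fitted values of both signs. The sterol C14 reductases Tm7sf2 (-0.15, adjusted p = 0.878) and Lbr (-0.03, adjusted p = 0.992) also had overlapping groups. The sign of Lbr turned with library size scaling or TPM. Of the Tm7sf2 exon bases, 12.1% are shared with Vps51 on the same strand.

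The last enzymes, which move and reduce the double bonds of the sterol ring, were similar in direction. Ebp, the sterol isomerase, was at 139, 188 and 150.2 CPM in WT and at 137, 141 and 122 CPM in Pak4_KO, a log2 fold change of -0.26 (-0.59 to 0.08, edgeR adjusted p = 0.729). Only the lowest WT and the highest Pak4_KO library crossed. Sc5d, the sterol C5 desaturase, was at 211, 265 and 231 CPM in WT and at 208, 226 and 182 CPM in Pak4_KO, with overlapping groups and a value of -0.20 (-0.53 to 0.13, adjusted p = 0.809). Dhcr7, the 7-dehydrocholesterol reductase, was at 36.3, 62.6 and 29.2 CPM in WT and at 40.8, 31.2 and 25.8 CPM in Pak4_KO. Its log2 fold change of -0.39 (-1.05 to 0.27, adjusted p = 0.812) came with WT replicate 2 far above the other libraries, and the value was -0.01 without that library.

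**Figure D2:**
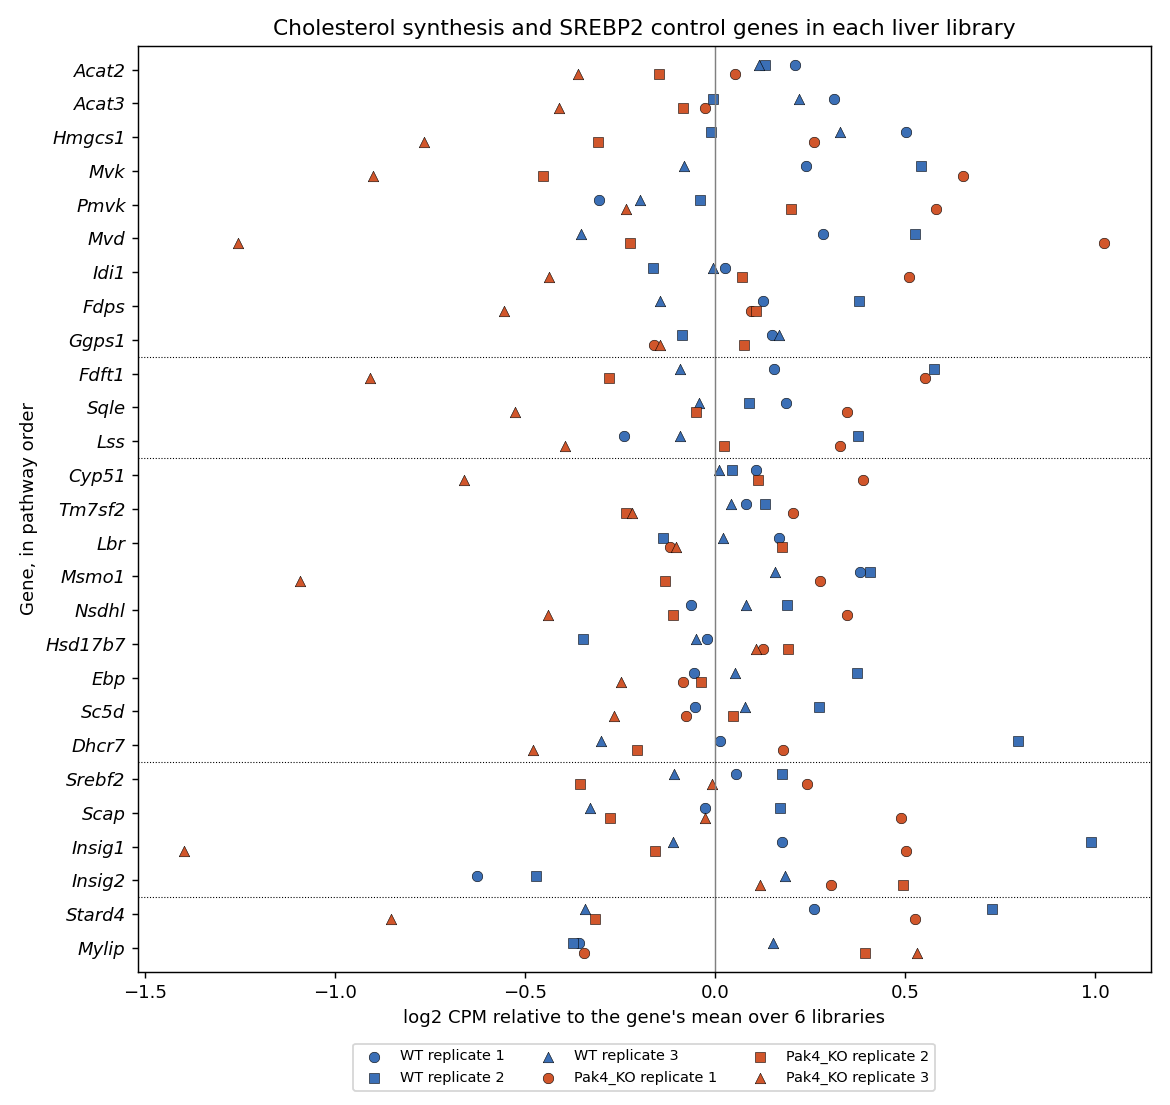
log2 CPM of each gene in each library relative to the gene's mean over 6 libraries, in pathway order; blue symbols are WT, orange symbols Pak4_KO, and circles, squares and triangles are replicates 1, 2 and 3. Pak4_KO replicate 3 (orange triangles) is the lowest Pak4_KO library for 21 of the 27 genes, and Pak4_KO replicate 1 (orange circles) the highest for 19.

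The control genes of SREBP2 split in direction. Srebf2, which encodes SREBP2, was at 19.0, 20.7 and 17.0 CPM in WT and at 21.7, 14.3 and 18.2 CPM in Pak4_KO. Its groups overlapped fully (log2 fold change -0.07, -0.47 to 0.34, edgeR adjusted p = 0.969). Scap, the escort of SREBP2, was at 80.6, 92.4 and 65.3 CPM in WT and at 115, 67.8 and 80.6 CPM in Pak4_KO. Only Pak4_KO replicate 1 was above the WT range of Scap, which had a value of 0.14 (-0.35 to 0.63, adjusted p = 0.935). 5830462I19Rik on the opposite strand overlaps 13.2% of the Scap exon bases.

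The INSIG genes had fitted values of opposite sign. Insig1, on chromosome 5 (28071412 to 28078662), was at 307, 540.1 and 252 CPM in WT and at 385, 244 and 103 CPM in Pak4_KO. It varied by 2.14-fold within WT and by 3.73-fold within Pak4_KO, and its log2 fold change of -0.59 had an interval from -1.61 to 0.44 (edgeR adjusted p = 0.823). Insig2, on chromosome 1 (121304353 to 121332662), encodes the form that is not induced by SREBP2 and has a liver transcript known to be lowered by insulin. It was at 332, 370.0 and 583 CPM in WT and at 634, 723 and 557 CPM in Pak4_KO. WT replicate 3 lay just above the lowest Pak4_KO library, and the other WT libraries lay below all 3. The log2 fold change of Insig2 was 0.57 (0.06 to 1.09, unadjusted p = 0.0326, edgeR adjusted p = 0.541), and over the alternatives the adjusted p ran from 0.127 to 0.939. In deposited TPM, Insig2 was at 205 to 367 in WT and at 384 to 465 in Pak4_KO, with no overlap.

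Per length, the INSIG genes were among the most abundant transcripts of the pathway. Insig2 was at 264 ± 89.0 TPM in WT and 428 ± 40.8 TPM in Pak4_KO (SD, n = 3 each), the highest mean of the 27 genes in both groups. Insig1 followed at 227 ± 90.5 TPM in WT, Fdps at 208 ± 37.3 TPM and Acat3 at 179 ± 24.7 TPM, and these 4 neighbours did not differ beyond their spread in WT. In Pak4_KO the order after Insig2 was Fdps at 190 ± 41.0 TPM, Insig1 at 158 ± 89.6 TPM and Acat3 at 149 ± 14.7 TPM. Srebf2 was among the least abundant, at 6.24 ± 0.607 TPM in WT and 6.20 ± 1.28 TPM in Pak4_KO, and Mvd was lowest at 2.99 ± 0.904 and 3.02 ± 2.29 TPM. The ratio of Insig1 to Insig2 in TPM was 0.898, 1.60 and 0.419 in WT and 0.575, 0.328 and 0.187 in Pak4_KO. These ratios overlapped, since WT replicate 3 was below Pak4_KO replicate 1.

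**Figure D3:**
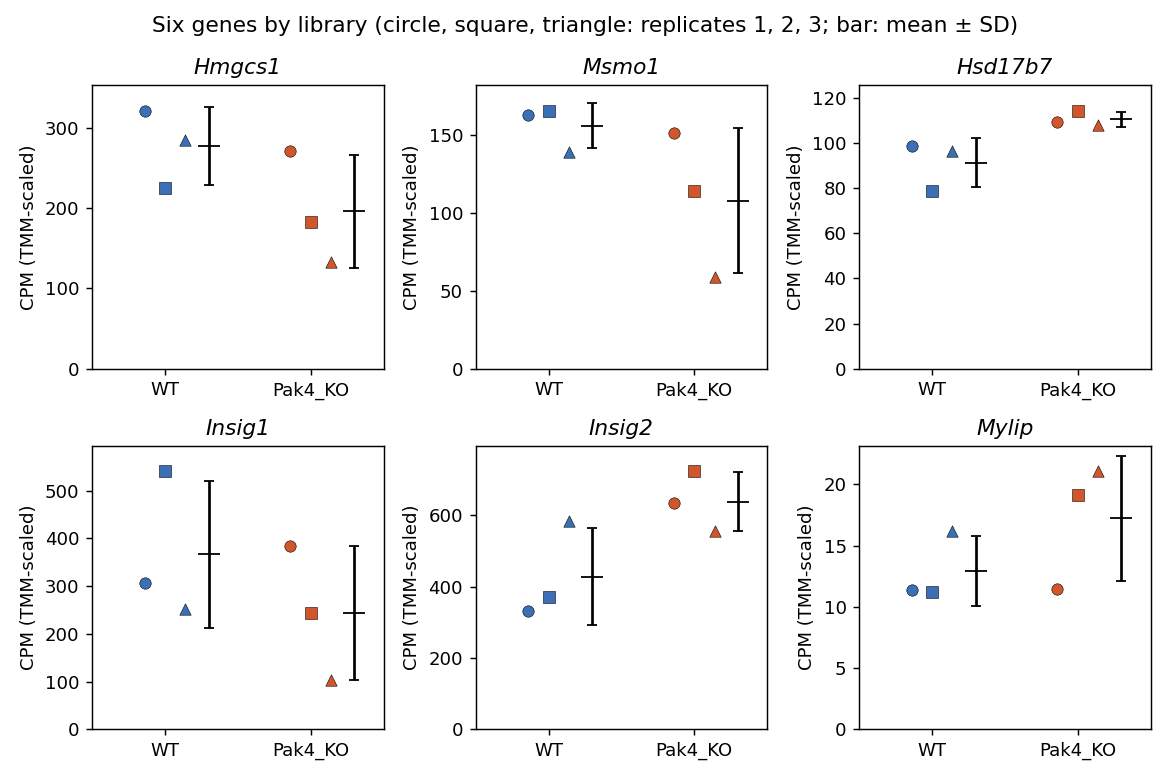
TMM-scaled CPM of Hmgcs1, Msmo1, Hsd17b7, Insig1, Insig2 and Mylip in each library; circles, squares and triangles are replicates 1, 2 and 3, and the black bars are the mean ± SD of 3 libraries. Hsd17b7 is the gene of these whose groups do not overlap in CPM, at 78.7 to 98.6 in WT and 108 to 114 in Pak4_KO.

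The 2 further sterol-responsive genes had values of opposite sign. Stard4, which encodes a soluble sterol carrier, was at 66.1, 91.5 and 43.6 CPM in WT and at 79.5, 44.4 and 30.6 CPM in Pak4_KO. The groups overlapped widely, with a log2 fold change of -0.38 (-1.22 to 0.46, edgeR adjusted p = 0.877). Mylip encodes the ubiquitin ligase IDOL, which is induced by the sterol sensor LXR and lowers lipoprotein uptake. It was at 11.4, 11.2 and 16.2 CPM in WT and at 11.5, 19.1 and 21.0 CPM in Pak4_KO. Pak4_KO replicate 1 was level with the lower WT libraries and the others were above all WT libraries (log2 fold change 0.41, -0.16 to 0.99, adjusted p = 0.744).

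The genes differed among the Pak4_KO libraries by more, in the median, than all tested genes did. The highest Pak4_KO library was 1.70 times the lowest in the median over the 27 genes, against 1.40 over all tested genes. Within WT the same ratio was 1.25 for the 27 genes and 1.39 for all genes. Restricted to genes with a mean of at least 10 CPM, the values were 1.65 for 25 of the genes and 1.28 for 7417 tested genes in Pak4_KO, and 1.25 and 1.24 in WT. These are descriptions of 3 libraries per group, with no test.

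The spread had a common order. Pak4_KO replicate 3 was the lowest Pak4_KO library for 21 of 27 genes (77.8%), against 32.9% of all tested genes, and Pak4_KO replicate 1 was the highest for 19 (70.4%), against 37.0%. Replicate 1 was above replicate 3 for 24 genes (88.9%, against 50.2% of all genes), and the median log2 ratio of replicate 3 to replicate 1 was -0.66, against -0.004. The difference in CPM was 4.86-fold for Mvd, 3.73-fold for Insig1, 2.93-fold for Mvk and 2.75-fold for Fdft1. It was 2.60-fold for Stard4, 2.58-fold for Msmo1, 2.07-fold for Cyp51 and 2.04-fold for Hmgcs1. It was near 1 for Ggps1 (0.988), Lbr (0.989) and Hsd17b7 (1.01), and Mylip was lower in replicate 1 (0.545). For Fdft1 the difference was smaller in TPM, at 26.0 in replicate 1 and 15.8 in replicate 3. Pak4_KO replicate 3 was the lowest of all 6 libraries for 18 genes (66.7%, against 17.5%). Since genes of 1 library share its source, these counts describe libraries and not the genotype.

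WT libraries showed a smaller order. WT replicate 2 was the highest for 16 genes (59.3%, against 37.6% of all tested genes) and WT replicate 3 the lowest for 14 (51.9%, against 37.5%). WT replicate 2 exceeded WT replicate 3 by 2.14-fold for Insig1, 2.14-fold for Dhcr7, 2.1-fold for Stard4 and 1.84-fold for Mvd. Insig2 (0.635) and Mylip (0.694) were lower in WT replicate 2. The median of the 27 genes relative to each gene's mean was 0.11, 0.17 and -0.01 (log2) in WT and 0.28, -0.09 and -0.41 in Pak4_KO, so Pak4_KO held both the highest and the lowest library.

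**Figure D4:**
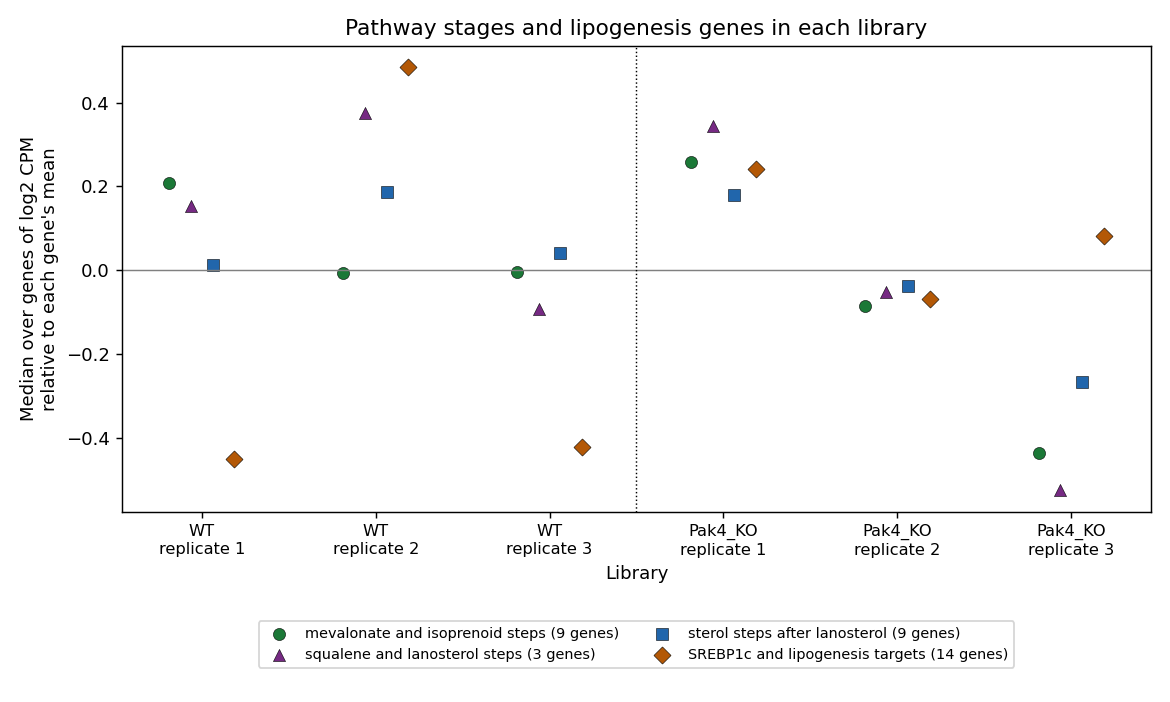
Median over genes of log2 CPM relative to each gene's mean, per library, for 3 pathway stages and for 14 SREBP1c and lipogenesis target genes. All 3 stages are lowest in Pak4_KO replicate 3, where the lipogenesis genes are at 0.08, and the lipogenesis genes are lowest in WT replicates 1 and 3 (-0.45 and -0.42).

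Markers of other liver cell types also differed between libraries. The 7 Kupffer cell and macrophage markers all had negative values, with summed levels of 319 to 404 CPM in WT and 253 to 339 CPM in Pak4_KO, and 0 were called. The 4 neutrophil markers were negative as well, at 26.6 to 42.9 CPM in WT and 15.7 to 20.3 CPM in Pak4_KO, lowest in Pak4_KO replicate 3. Of the 6 cholangiocyte markers 5 were positive, at 40.8 to 59.5 CPM in WT and 54.3 to 83.2 CPM in Pak4_KO, highest in Pak4_KO replicate 3. The 6 liver endothelial markers were at 215 to 269 CPM in WT and 214 to 308 CPM in Pak4_KO, and the 6 stellate markers at 170.2 to 278 and 156 to 321 CPM, both highest in Pak4_KO replicate 3. Of the 6 T, NK and B cell markers 4 were tested, with 1 positive and 3 negative values. Summed levels over the 6 were 2.78 to 3.38 CPM in WT and 4.39 to 5.38 CPM in Pak4_KO. The Pak4_KO sum is mostly Igkc, an immunoglobulin light chain gene. Igkc was at 1.31, 1.75 and 1.35 CPM in WT and at 3.40, 4.06 and 4.68 CPM in Pak4_KO. It was the positive gene (log2 fold change 1.46, edgeR adjusted p = 0.0505, no overlap). The T cell gene Cd3g, among the negative ones, had a value of -1.20 (adjusted p = 0.480, no overlap). Cd79a, not tested, was at 0 reads in every WT library and at 7, 0 and 0 reads in Pak4_KO replicates 1 to 3. No marker was called, where 0.469% of all tested genes were. The hepatocyte sum is mostly Alb. Without Alb, the 7 other hepatocyte markers summed to 19174 CPM in Pak4_KO replicate 3, the lowest of the 6 libraries, against 21901 to 24870.3 CPM in the others. Their list median relative to each gene's mean, Alb included, was also lowest in that library, at -0.18 (log2). The TMM factor of that library was 1.08, the highest of the 6. The part of these differences in the sterol genes was not tested.

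Genes around the pathway were described from 5 lists of related function. Of their 68 tested genes 0 were called by edgeR, where 0.469% of all tested genes were. Of 12 genes of SREBP processing and sterol sensing, 3 were positive and 9 negative (median -0.06). Erlin2, which helps the breakdown of sterol-regulated proteins, had a value of 0.26 (adjusted p = 0.717). Of 15 genes that use isoprenoids, 12 were positive and 3 negative (median 0.06), with Icmt, the methyltransferase of prenylated proteins, at 0.28 (adjusted p = 0.648, no overlap) and Fnta, a prenyltransferase subunit, at 0.18 (adjusted p = 0.816).

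Sterol transport and esterification had 6 positive and 10 negative genes of 16 (median -0.10). Nceh1, a cholesteryl ester hydrolase, was at 62.9, 44.7 and 62.1 CPM in WT and at 81.6, 125 and 125 CPM in Pak4_KO. All Pak4_KO libraries were above all WT libraries (log2 fold change 0.97, SE 0.21, edgeR adjusted p = 0.138), and the DESeq2 Wald test called it (adjusted p = 0.00259). Soat2, which esterifies cholesterol in hepatocytes, had a value of 0.49 with overlapping groups (adjusted p = 0.578). The 11 genes of LXR and its targets had 2 positive and 9 negative values (median -0.06). Abcg8, a subunit of the canalicular sterol exporter, was at 42.3, 71.4 and 41.8 CPM in WT and at 40.3, 32.4 and 28.8 CPM in Pak4_KO, with no overlap (-0.62, adjusted p = 0.517). Srebf1, which encodes SREBP1, was at 150.3, 462 and 92.1 CPM in WT and at 212, 70.5 and 66.3 CPM in Pak4_KO. WT replicate 2 was far above the other libraries of Srebf1 (-1.01, SE 0.64, adjusted p = 0.757).

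Fatty acid genes shared part of the library order of the sterol genes. Of 14 SREBP1c and lipogenesis targets 10 were positive and 4 negative (median 0.18). Elovl5, a fatty acid elongase, was at 435, 432 and 516 CPM in WT and at 788, 670.2 and 754 CPM in Pak4_KO, with no overlap (log2 fold change 0.68, SE 0.14, edgeR adjusted p = 0.131). The DESeq2 Wald test called Elovl5 (adjusted p = 0.00114). Me1, the malic enzyme that supplies NADPH, was at 78.2, 111 and 75.0 CPM in WT and at 124, 118 and 173 CPM in Pak4_KO, also with no overlap (0.65, adjusted p = 0.382). Thrsp, a lipogenic gene named after its values were seen for having the largest fold change of the list, went the other way. It was at 565, 1037 and 464 CPM in WT and at 483, 270.4 and 190.2 CPM in Pak4_KO, with Pak4_KO replicate 1 just above the lowest WT library (-1.13, -2.02 to -0.24, unadjusted p = 0.0192, edgeR adjusted p = 0.465). WT replicate 2 was the highest WT library for 13 of the 14 lipogenesis genes, where it was for 37.6% of all tested genes. Pak4_KO replicate 1 was the highest Pak4_KO library for 9, where it was for 37.0% of all tested genes. The low end differed from the sterol genes: Pak4_KO replicate 2 was the lowest for 10, and Pak4_KO replicate 3 was the lowest for 3 and the highest for 5. The list medians were highest in WT replicate 2 (0.48, log2) and Pak4_KO replicate 1 (0.24), the same libraries in which the medians of the 27 sterol genes were highest. Pak4_KO replicate 3, lowest for the sterol genes, was at 0.08 for the lipogenesis genes. The summed CPM of the list rests mainly on Scd1, a fatty acid desaturase, which was at 8379 CPM in Pak4_KO replicate 3. Without Scd1 that library summed to 3121 CPM, below WT replicate 2 at 4258 CPM and Pak4_KO replicate 1 at 3822 CPM and above the others at 2371 to 2684 CPM.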

How the data were processed

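RNA of whole liver was sequenced from 1 µg of total RNA per library with a stranded kit for polyadenylated RNA, per the labels' protocols. Tools named in the submitters' processing notes are StringTie 2.1.3b, HISAT2 2.1.0, Bowtie2 2.3.4.1, FastQC 0.11.7 and bcl2fastq 2.20.0, with the build mm10. How counting treated strand and multiply matching reads, and which annotation release it used, is not given in the sources used here. Whole-number read counts per gene were deposited by the authors, per the file headers. Deposited FPKM were not used, and deposited TPM were used for levels between genes and in 2 alternatives. Columns were matched to samples by genotype and replicate number.

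Counts were fitted with edgeR 4.0.16 (R 4.3.3; filterByExpr, TMM, quasi-likelihood F-test, two-sided, 6 libraries), and p-values were adjusted by Benjamini-Hochberg over 16197 genes, with calls at 0.05. SE is the size of the log2 fold change over the root of F. Library differences within a gene used log2 CPM with a prior count of 2. Per-library values are given for the 10 members with the smallest raw p, the 4 SREBP2 control genes and the first and last gene of each stage. In each related list the 2 genes with the smallest raw p are named, except 1 that is not reported here, and Srebf1, Thrsp, Scd1, Igkc and Cd3g were named after their values were seen. The members and lists were chosen with earlier results of these data known. Promoters came from RefSeq (GRCm38.p6), and near-copies from blastn 2.17.0 (at least 85% identity). Same-numbered libraries (r = 0.067, -0.20 and 0.15) deviated no more alike than differently numbered ones (r from -0.24 to 0.19), and no block was used. With 3 libraries per group these values cannot decide whether equal numbers mark paired libraries. No library pair agreed within sampling noise (chi-square per gene 64.2 to 130). Simulations (5, with 200 of 16197 genes changed) gave 2.99%, 34.8% and 78.6% recovery at 1.5-, 2- and 4-fold, and 8.86% false calls. Alternatives were other scalings (DESeq2 size factors, upper quartile, library size), other filters (none, at least 10 reads), DESeq2 1.42.0, limma 3.58.1 (voom, trend on TPM with pseudocounts of 1 and 0.1), robust edgeR, a replicate block, and libraries left out.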

Additional observations from a re-analysis of the deposited data

How the results depend on the processing

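In the 18 alternatives, 0 of the 27 genes were called, 18 kept the sign of their log2 fold change in all and 9 turned in at least 1. The fit with the replicate number as a block also called 0 of the 27, with a median log2 fold change of -0.17. It changed no call of a named gene among them. The labels do not say whether equal numbers mark paired libraries. Genes with no overlap between the groups numbered 3 in CPM and 5 in deposited TPM, a scale added after the data were seen. Over all genes, the 43 called higher and 33 called lower became 16 higher with at least 10 reads in every library, and 175 higher and 159 lower with the DESeq2 Wald test, which also called 2 genes of the related lists. Leaving out 1 library gave 22 to 34 genes called higher and 13 to 47 called lower. The median over the 27 genes ran from -0.31 to -0.04 with 1 library left out.

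Small fitted values turned sign. Lss and Lbr were at 0.017 and 0.018 with library size scaling, at 0.062 and 0.046 with log2(TPM + 1), and at 0.066 and 0.050 with log2(TPM + 0.1). With 1 library left out, or with both WT replicate 3 and Pak4_KO replicate 1 left out, Lbr ran from -0.13 to 0.036, Mvd from -1.06 to 0.33, Lss from -0.27 to 0.18, Srebf2 from -0.29 to 0.076, Idi1 from -0.12 to 0.35, Scap from -0.22 to 0.30, Sqle from -0.41 to 0.079, Cyp51 from -0.30 to 0.20 and Nsdhl from -0.34 to 0.062. Without that pair of libraries, which stood apart on the second principal component, Idi1 was at -0.09, Lbr at 0.023 and Scap at -0.22, the median over the 27 genes was -0.33, and Pak4 lost its call (adjusted p = 0.0646). The cause of these turns was not tested. With 3 libraries per group, changes below 2-fold were mostly not detectable.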

Other observations

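Fdft1 was the only gene of the 27 whose ratio of deposited TPM to CPM differed between libraries by more than 1.3 times. The ratio was 0.357 in Pak4_KO replicate 1 and 0.491 to 0.599 in the other libraries. In TPM, Fdft1 was at 30.9 ± 5.60 in WT and 21.4 ± 5.14 in Pak4_KO (SD, n = 3 each).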
